A study of Mus musculus with 19 samples.

Results

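The miRNAs described here come from precursors described as reaching Dicer without first being cut by Drosha. They are the products of Mir320, Mir484, Mir664, Mir1839 and Mir1983, and their route was not measured in these libraries. They were taken as every row of the count files named miR-320, miR-484, miR-664, miR-1839 or miR-1983, with or without an arm suffix, which gave 8 rows from 5 precursors among 1148 listed mature miRNAs. The rows are miR-320-5p, miR-320-3p, miR-484, miR-664-5p, miR-664-3p, miR-1839-5p, miR-1839-3p and miR-1983.

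Small RNA was sequenced from CA1, a pyramidal cell field of the hippocampus, of mice labelled as the C57B/6JRj strain and wild type. There were 6 libraries of mice aged 20 months given SAHA (aged SAHA), 5 of mice aged 20 months given vehicle (aged vehicle) and 8 of mice aged 3 months given vehicle (young vehicle). SAHA, also called vorinostat, blocks histone deacetylases. It was taken orally at 0.67 g per L of water, and all 3 groups, the SAHA group included, received the carrier cyclodextrin at 18 g per L. Treatment of the aged mice lasted 4 weeks. No label states how long the young mice were treated, the sex of any animal, a sequencing batch, or whether a library is 1 animal or a pool, so p-values measure only the spread between these libraries. Reads assigned to miRNAs came to between 4211365 and 5410804 per aged SAHA library, between 4642434 and 5249168 per aged vehicle library and between 3585489 and 6808281 per young vehicle library.

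A canonical miRNA hairpin is cut out of a longer transcript by Drosha with its partner Dgcr8, exported to the cytoplasm, and cut again by Dicer. Several hairpins reach Dicer by other routes. In the mouse, the Mir320 and Mir484 hairpins are made directly as short capped transcripts that start at the 5′ end of the hairpin, and for miR-320 the cap is known to leave the 3p strand as the one that enters Argonaute. miR-664 and miR-1839 are cut from small nucleolar or Cajal body RNAs, which otherwise guide the modification of other RNAs, and miR-1983 is cut from a transcript that can fold as an isoleucine tRNA.

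The mature sequences show how unlike the members are. RefSeq (GRCm38.p6) gave a mature sequence for 5 of the 8 rows and a hairpin for 4 of the 5 precursors. The mature sequences are written 5′ to 3′ with the seed, bases 2 to 8, in capitals.
miR-484: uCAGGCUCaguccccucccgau
miR-664-5p: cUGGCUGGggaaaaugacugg
miR-664-3p: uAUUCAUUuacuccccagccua
miR-1839-5p: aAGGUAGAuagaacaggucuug
miR-1983: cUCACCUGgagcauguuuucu

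No 2 of these 5 share a seed. Among the 891 listed miRNAs that had a mature sequence, only miR-412-3p carried a seed of theirs, that of miR-1983, and the other 4 seeds occurred in no other listed miRNA. miR-1839-5p stands next to the let-7 family by sequence: its bases 2 to 7, AGGUAG, are found 1 base further on, at bases 3 to 8, in 10 listed miRNAs. These are 8 let-7 5p miRNAs, miR-98-5p and miR-1961. let-7d-5p, which comes back below beside miR-1839-5p, is shown to set the 2 starts side by side.
miR-1839-5p: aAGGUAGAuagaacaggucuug
let-7d-5p: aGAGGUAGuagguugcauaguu
The 7-base seeds of this pair differ, so they are not one seed family.

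The hairpins are given with the listed mature miRNAs in capitals, to show where in each precursor the miRNA lies.
Mir484: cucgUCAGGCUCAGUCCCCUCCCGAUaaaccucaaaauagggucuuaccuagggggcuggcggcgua
Mir664: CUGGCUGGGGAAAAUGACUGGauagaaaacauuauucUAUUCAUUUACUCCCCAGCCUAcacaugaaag
Mir1839: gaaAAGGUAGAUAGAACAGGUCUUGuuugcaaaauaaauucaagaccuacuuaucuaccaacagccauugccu
Mir1983: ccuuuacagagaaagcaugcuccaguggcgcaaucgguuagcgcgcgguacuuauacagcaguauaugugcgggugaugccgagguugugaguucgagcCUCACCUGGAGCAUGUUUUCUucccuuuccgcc

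Mir1983, at 132 bases, was longer than all but 10 of the 1005 RefSeq mouse hairpins, and the other 3 had 67, 69 and 73 bases. Its mature miRNA occupied bases 100 to 120, near the 3′ end. The B box of tRNA genes, an internal promoter element of RNA polymerase III searched as GUUCGANNC on both strands, lay at bases 92 to 100 of Mir1983, so that its last base is the first of the miRNA. The same letters were found in 5 of the 1005 hairpins (0.498%), Mir1983 included. This is a match of letters and not a measured binding site. In the predicted minimum-energy folds, 20 of the 21 bases of miR-1983 were paired, against 13 of 22 for miR-484, 17 of 22 for miR-1839-5p, 15 of 21 for miR-664-5p and 18 of 22 for miR-664-3p.

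**Figure D1:**
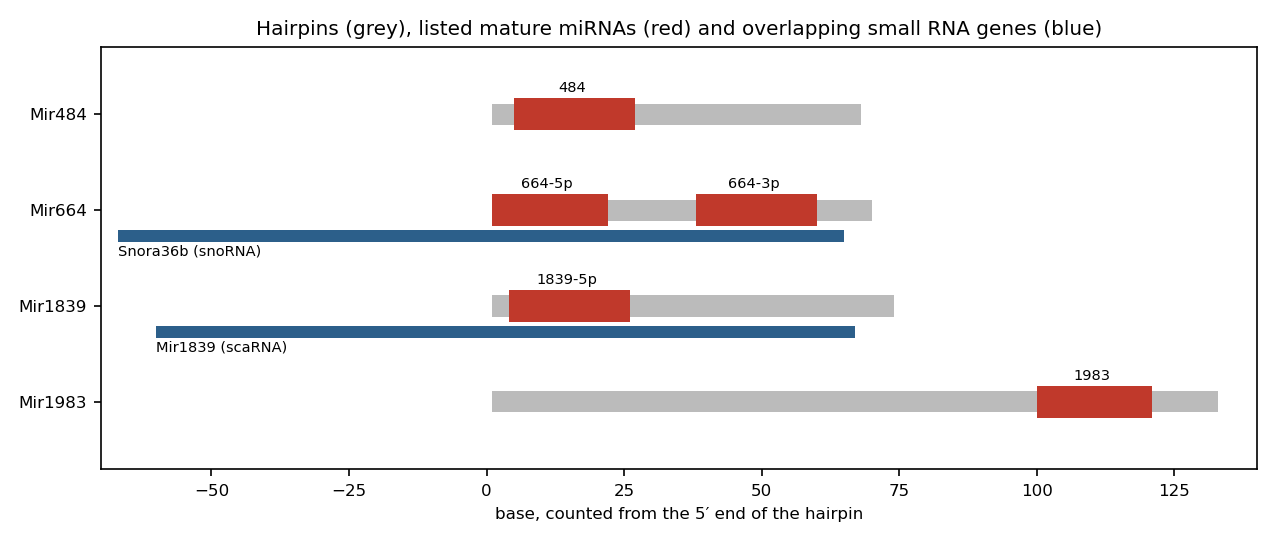
The 4 hairpins with a RefSeq sequence are drawn to scale as grey bars, with position in bases from the 5′ end of each hairpin on the horizontal axis. Red boxes are the mature miRNAs and blue bars the small RNA genes that overlap a hairpin on the same strand. The mature miRNA of Mir484 starts at base 5 and that of Mir1839 at base 4, while that of Mir1983 spans bases 100 to 120.

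The annotation placed the precursors in different surroundings (GENCODE M21 on GRCm38). Mir664 spans 185242975 to 185243043 on chromosome 1, on the plus strand, in an intron of Rab3gap2, and 64 of its 69 bases lie inside the snoRNA gene Snora36b on the same strand. Mir1839 spans 81529916 to 81529988 on the plus strand of chromosome 7, where 66 of its 73 bases lie inside a gene of the type scaRNA that carries the same name, and it falls in an exon of the noncoding RNA 2900076A07Rik. Mir484 spans 14159626 to 14159692 on the plus strand of chromosome 16 and lies in an exon of Marf1, a gene of the opposite strand. Mir320 spans 70443510 to 70443591 on the plus strand of chromosome 14, starting 63 bases from the 5′ end of Polr3d, which is read in the opposite direction. Mir1983 spans 21896918 to 21897049 on the minus strand of chromosome 13, with no other gene listed in that annotation within 500 bases. Searched against GENCODE transcripts, miR-664-5p and miR-664-3p were also found in Snora36b, and miR-1839-5p in the scaRNA and in 2900076A07Rik. No source used here states whether reads were counted by strand, so fragments of Marf1 cannot be told apart from miR-484. Snora36b, the scaRNA and 2900076A07Rik lie on the same strand as the miRNAs they hold. Their fragments could not be told apart from these miRNAs even with counting by strand. The same limit holds for miR-1983 and fragments of the transcript that can fold as a tRNA.

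All members together made up a small part of the CA1 miRNA reads. They held 0.126% to 0.160% of the counts of an aged SAHA library (median 0.149%), 0.128% to 0.131% of an aged vehicle library (median 0.131%) and 0.121% to 0.135% of a young vehicle library (median 0.133%). Levels are given as CPM, miRNA counts scaled to a common depth after TMM normalisation, which corrects for differences in library composition. A difference of CPM between 2 miRNAs also depends on how well each sequence ligates and amplifies. Over the 19 libraries miR-1839-5p was the most abundant member, at 563 ± 88.1 CPM (SD, n = 19), which ranked it 104th of 1148 listed miRNAs. miR-484 followed with 301 ± 39.1 CPM, miR-320-3p with 158 ± 20.6 CPM, miR-664-3p with 137.7 ± 9.60 CPM, miR-664-5p with 81.8 ± 8.18 CPM, miR-1983 with 78.5 ± 11.9 CPM and miR-1839-3p with 32.1 ± 3.37 CPM (SD, n = 19 each). Within libraries, miR-320-3p exceeded miR-664-3p in all but aged vehicle 1 (133.4 against 135.7 CPM). The order of miR-664-5p and miR-1983 changed between libraries, with 76.1 against 61.1 CPM in aged SAHA 1 and 67.7 against 87.9 CPM in young vehicle 1. miR-320-5p was close to absent: 13 of 19 libraries had 0 counts, and the other 6 had 1 or 2. In the 13, a floor set at 3 counts corresponds to 0.455 to 0.887 CPM. The 95% Poisson interval of a count of 0 reaches somewhat higher, to 3.69 counts. The 7 counts of miR-320-5p in all compare with 15421 for miR-320-3p. The other 7 rows passed the filter on low counts and were tested among 509 miRNAs.

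**Figure D2:**
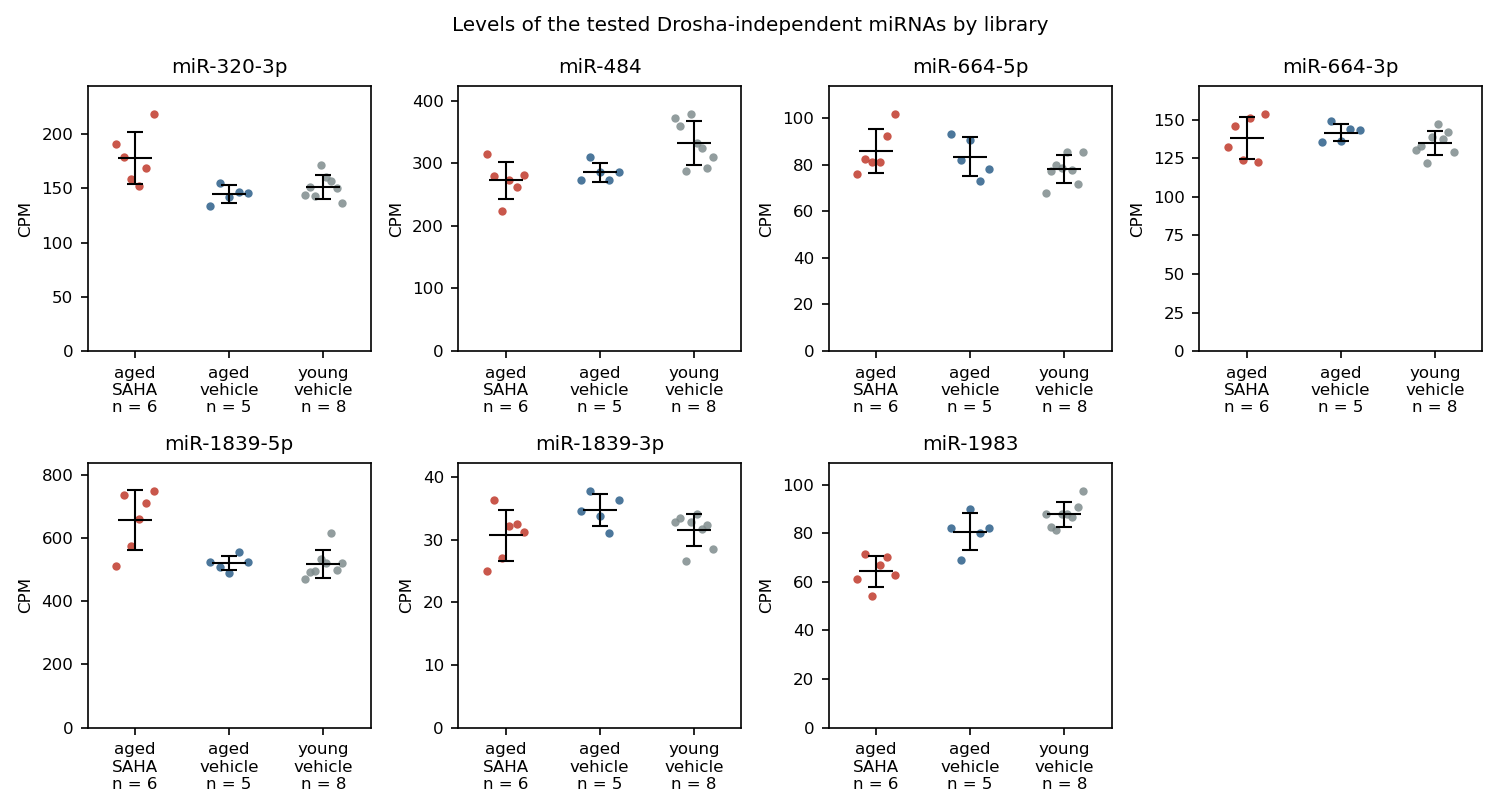
Each point is the level of a miRNA in 1 library, in CPM on an axis that starts at 0, with aged SAHA (n = 6), aged vehicle (n = 5) and young vehicle (n = 8) from left to right, and black lines give mean ± SD. miR-1839-5p and miR-320-3p lie higher and miR-1983 lower in most aged SAHA libraries, and miR-484 lies highest in young vehicle.

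The treatment comparison asks what SAHA did in the aged CA1. miR-1839-5p rose and miR-1983 fell, miR-320-3p was higher without passing the threshold, and the other 4 tested members did not pass it. That made 2 of 7 tested members called, where 4.32% of all tested miRNAs were called (22 of 509, 1.18% higher and 3.14% lower, by the edgeR quasi-likelihood test at an adjusted p under 0.05). Since the members were chosen with earlier results of these data known, this share is a description of the 7. Their median log2 fold change was -0.04, against -0.01 over all tested miRNAs, with 3 positive and 4 negative. In bulk tissue, fewer cells of a type cannot be told apart from less of a miRNA per cell.

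miR-1839-5p, whose hairpin lies mostly inside the scaRNA gene, had 511.9 to 749 CPM in aged SAHA with a median of 685, against 525, 509.9, 491, 555 and 524 CPM in aged vehicle. 5 of the 6 aged SAHA libraries lay above all 5 aged vehicle libraries, and the exception was aged SAHA 1, which at 511.9 CPM lay within the aged vehicle range. The means were 658 ± 95.4 CPM in aged SAHA and 521 ± 23.5 CPM in aged vehicle (SD, n = 6 and 5), a log2 fold change of 0.34 ± 0.09 (SE) with an adjusted p of 0.0267 by edgeR. Leaving out aged SAHA 2, 5 or 6, or aged vehicle 1 or 3, ended the call (highest adjusted p 0.074, without aged SAHA 6). Aged SAHA 1, the library with the lowest median correlation with its own group (0.989 over tested miRNAs), held the value down: without it the log2 fold change was 0.40.

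miR-1839-3p, the other arm of the same hairpin, did not share this. It had 25.04 to 36.3 CPM in aged SAHA with a median of 31.7, against 34.6, 37.8, 33.8, 31.1 and 36.3 CPM in aged vehicle, and the groups overlapped. Its log2 fold change was -0.18 ± 0.10 (SE) with an adjusted p of 0.339 by edgeR. These levels rest on few reads: the lowest count of an aged SAHA library was 130, with a 95% Poisson interval of 109 to 154 that covers counting error only.

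The share of the 5p arm compares both arms within a library and does not depend on scaling. The 5p arm held 95.3%, 95.3%, 95.5%, 95.4%, 95.6% and 96.0% of the miR-1839 counts in aged SAHA libraries 1 to 6, against 93.8%, 93.1%, 93.6%, 94.7% and 93.5% in aged vehicle libraries 1 to 5. Every aged SAHA library lay above every aged vehicle library. Of 235 precursors with both arms listed and at least 20 counts in every library, 11 (4.68%) separated these groups in this way and none in the other direction, so that 4.68% also holds for either direction. let-7d, named after its values were seen, was among the 11, with 75.9% to 85.1% in aged SAHA and 70.4% to 74.7% in aged vehicle. Aged SAHA 1 stood with its group here, since both of its arms were low. The mean was 95.5% ± 0.263 in aged SAHA and 93.7% ± 0.591 in aged vehicle (SD, n = 6 and 5), a difference of 1.79 percentage points. The exact two-sided permutation p was 0.00216, the smallest that the 462 regroupings can give. It was 0.00974 after Benjamini-Hochberg adjustment over 9 tests of arm shares, those of miR-320, miR-664 and miR-1839 alone. As the members were chosen with earlier results of these data known, this adjusted p does not cover the choice among the 235 precursors. As a ratio, 5p counts were 20.3 to 23.98 times the 3p counts in aged SAHA (median 21.0) and 13.5 to 17.9 times in aged vehicle (median 14.5). Counting error alone is wide at this depth: the 95% Wilson interval ran from 94.5% to 96.1% in aged SAHA 1 and from 92.9% to 94.6% in aged vehicle 1. With any 1 library left out the difference was 1.63 to 2.03 points. Its adjusted p, over the same 9 tests, was then between 0.0214 and 0.0357 by the same exact test.

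**Figure D3:**
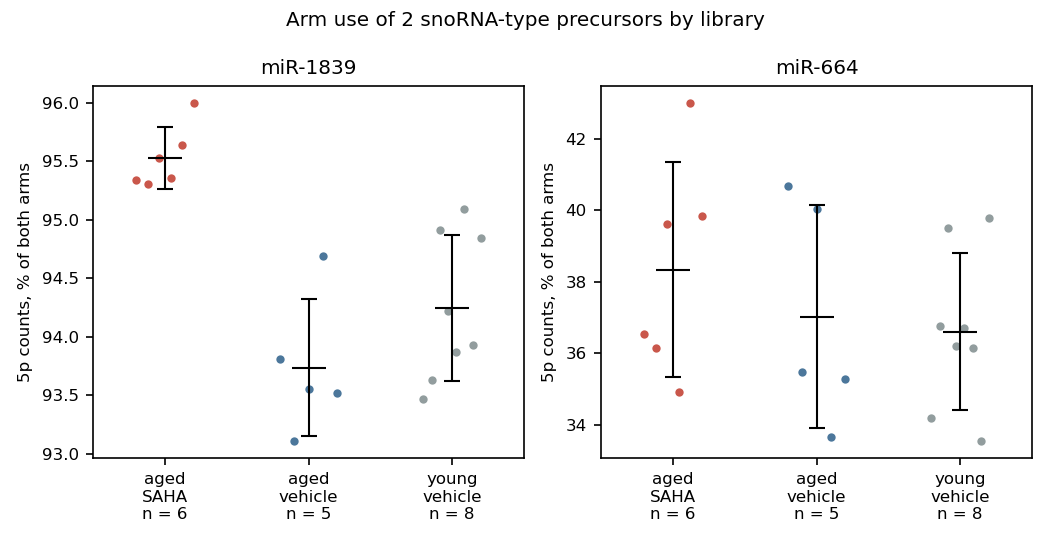
Each point is the percentage of a precursor's counts that fell on its 5p arm in 1 library, on axes that do not start at 0, with mean ± SD in black and aged SAHA, aged vehicle and young vehicle from left to right. For miR-1839 all 6 aged SAHA libraries lie above all 13 vehicle libraries, the highest of which is at 95.1%, while the 3 groups overlap for miR-664.

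miR-1983, the tRNA-type member whose seed is UCACCUG, went the other way. It had 54.0 to 71.3 CPM in aged SAHA with a median of 64.8, against 82.3, 68.9, 90.0, 80.0 and 82.0 CPM in aged vehicle. 4 of the 6 aged SAHA libraries lay below all aged vehicle libraries, and the overlap came from aged vehicle 2, the lowest of its group. The means were 64.3 ± 6.47 CPM in aged SAHA and 80.6 ± 7.59 CPM in aged vehicle (SD, n = 6 and 5), a log2 fold change of -0.33 ± 0.08 (SE) with an adjusted p of 0.0229 by edgeR. The call ended on leaving out aged SAHA 3, aged SAHA 6 or any of aged vehicle 1, 3 and 5 (highest adjusted p 0.0737, without aged vehicle 1), in a fit of only the groups compared (0.0833) and with no filter on low counts (0.0578).

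miR-320-3p, from the capped Mir320 hairpin, had 152 to 218.2 CPM in aged SAHA with a median of 174, against 133.4, 155.2, 141.7, 147 and 146 CPM in aged vehicle. 5 of the 6 aged SAHA libraries lay above all 5 aged vehicle libraries. The means were 178 ± 24.2 CPM in aged SAHA and 144.7 ± 7.997 CPM in aged vehicle (SD, n = 6 and 5), and the log2 fold change of 0.30 ± 0.09 (SE) had an adjusted p of 0.0555 by edgeR, just beyond the threshold. With DESeq2 the adjusted p was 0.0105 and with limma-voom 0.0273. With 1 library left out it ranged from 0.0203 (without aged SAHA 4) to 0.161 (without aged vehicle 1), and it passed without aged SAHA 3, 4 or 5.

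miR-484, the other capped member, and both arms of miR-664 gave no call in the treatment comparison. miR-484 had 224 to 315 CPM in aged SAHA with a median of 276, against 273, 310, 286, 273 and 287 CPM in aged vehicle (log2 fold change -0.07 ± 0.09 SE, adjusted p 0.717 by edgeR). miR-664-3p had 123 to 153 CPM in aged SAHA and 136 to 149 CPM in aged vehicle (-0.04 ± 0.08, adjusted p 0.82 by edgeR), and miR-664-5p had 76.1 to 101.5 CPM in aged SAHA and 73.1 to 93.1 CPM in aged vehicle (0.04 ± 0.09, adjusted p 0.838 by edgeR). Of the snoRNA-type precursors, an arm of miR-1839 was called and neither arm of miR-664, and the difference between these miRNAs was not itself tested. The 5p arm held 34.9% to 43.0% of the miR-664 counts in aged SAHA and 33.7% to 40.7% in aged vehicle, a mean difference of 1.31 points (exact two-sided permutation p = 0.489, adjusted 0.55 over the 9 tests).

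The summed level of 5 neuronal miRNAs (miR-124-3p, miR-128-3p, miR-9-5p, miR-138-5p and miR-218-5p) ran from 69301 to 75230 CPM over aged SAHA libraries. It ran from 81612 to 86349 CPM over aged vehicle libraries and from 80686 to 90730 CPM over young vehicle libraries. The aged SAHA range of this sum thus lay below both vehicle ranges. A sum follows its most abundant miRNAs, and the direction of each of the 5 is not given here. The part of this sum in the results above was not tested. The pituitary miRNA miR-375-3p was at 102.4 to 129.1 CPM in aged SAHA and 130.1 to 170 CPM in aged vehicle, ranges that nearly touch. Its young vehicle range of 97.9 to 216.5 CPM held both of these, and its part was not tested. For the marker lists of oligodendrocytes, microglia and blood leukocytes, erythrocytes, vessel wall, choroid plexus and muscle the ranges of aged SAHA and aged vehicle overlapped. The liver miRNA miR-122-5p stayed at or under 1.44 CPM in every library. No defining marker of these lists was at 0 in all libraries.

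**Figure D4:**
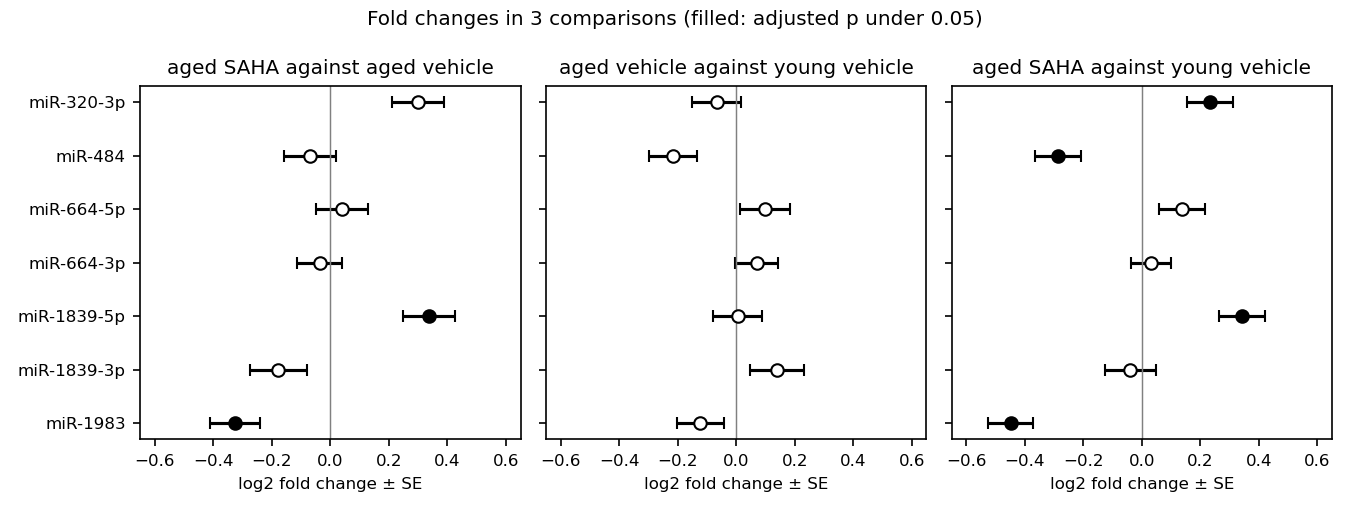
Points are log2 fold changes with their SE from the edgeR fit, with a panel for each comparison and a row for each tested member, and filled points have an adjusted p under 0.05. miR-1839-5p (0.34) and miR-1983 (-0.33) are filled for aged SAHA against aged vehicle, no member is filled for aged vehicle against young vehicle, and 4 members are filled for aged SAHA against young vehicle.

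The age comparison asks what differs between vehicle-treated mice of 20 and 3 months. None of the 7 tested members was called by edgeR, DESeq2 or limma-voom, where edgeR called 2.16% of all tested miRNAs, and 1 member had an unadjusted p under 0.05 in each of the 3 tools, as had 15.7% of tested miRNAs by edgeR. That member was miR-484. It had 273, 310, 286, 273 and 287 CPM in aged vehicle, against 288 to 378 CPM in young vehicle with a median of 328. 4 of the 5 aged libraries lay below all 8 young ones, with aged vehicle 2 as the exception. The means were 286 ± 15.2 CPM in aged vehicle and 332 ± 34.7 CPM in young vehicle (SD, n = 5 and 8), a log2 fold change of -0.22 ± 0.08 (SE) with an adjusted p of 0.204 by edgeR.

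The other members lay close to each other at both ages. miR-1839-5p averaged 521 ± 23.5 CPM in aged vehicle and 519 ± 44.1 CPM in young vehicle (SD, n = 5 and 8), a log2 fold change of 0.01 ± 0.08 (SE, adjusted p 0.987 by edgeR). miR-1983 averaged 80.6 ± 7.59 CPM in aged vehicle and 87.8 ± 5.01 CPM in young vehicle (-0.12 ± 0.08, adjusted p 0.444 by edgeR). For miR-320-3p, miR-664-3p, miR-664-5p and miR-1839-3p the log2 fold changes were -0.07 ± 0.08, 0.07 ± 0.07, 0.10 ± 0.08 and 0.14 ± 0.09 (SE), with adjusted p from 0.445 to 0.75 by edgeR. The median of the 7 was 0.01, against -0.003 over all tested miRNAs. The 5p share of miR-1839 was 93.7% ± 0.591 in aged vehicle and 94.2% ± 0.626 in young vehicle (SD, n = 5 and 8), a difference of -0.51 points (exact two-sided permutation p = 0.171, adjusted 0.425), and that of miR-664 was 37.0% ± 3.13 in aged vehicle and 36.6% ± 2.21 in young vehicle (exact permutation p = 0.793, adjusted 0.793).

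Treatment and age are combined where aged SAHA is set against young vehicle, and this comparison shares its libraries with both above. 2 members were higher and 2 lower by edgeR, where 13.9% of all tested miRNAs were called (5.3% higher and 8.64% lower). miR-1983 had 54.0 to 71.3 CPM in aged SAHA with a median of 64.8, against 81.1 to 97.4 CPM in young vehicle with a median of 87.9. All 6 aged SAHA libraries lay below all 8 young ones, as was so for 2.55% of tested miRNAs, and in either direction for 3.54%. The log2 fold change was -0.45 ± 0.08 (SE) with an adjusted p of 0.000385 by edgeR, and with any 1 library left out the adjusted p was at most 0.00167. With its means of 64.3, 80.6 and 87.8 CPM in aged SAHA, aged vehicle and young vehicle, miR-1983 was lowest in aged SAHA.

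miR-1839-5p had 511.9 to 749 CPM in aged SAHA with a median of 685, against 469.5 to 615 CPM in young vehicle with a median of 510.1 (log2 fold change 0.34 ± 0.08 SE, adjusted p 0.00508 by edgeR). 4 of the 6 aged SAHA libraries lay above all young ones, of which young vehicle 6 was the highest. The 5p share of miR-1839 again separated the groups, at 95.3% to 96.0% in aged SAHA and 93.5% to 95.1% in young vehicle. The mean difference was 1.28 points (exact two-sided permutation p = 0.00133, adjusted 0.00974 over the 9 tests of the members alone). 3 of the 235 precursors (1.28%) separated these groups with the higher share in aged SAHA, and 4 (1.7%) in either direction. miR-1839-3p had a log2 fold change of -0.04 ± 0.09 (SE, adjusted p 0.785 by edgeR), whose sign turned when only library size was used for scaling (0.004).

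miR-484 had 224 to 315 CPM in aged SAHA, against 288 to 378 CPM in young vehicle, and 5 of the 6 aged SAHA libraries lay below all 8 young ones (log2 fold change -0.28 ± 0.08 SE, adjusted p 0.0163 by edgeR). The call ended in a fit of only these 2 groups (0.0616). miR-320-3p had 152 to 218.2 CPM in aged SAHA, against 137 to 172 CPM in young vehicle, with a log2 fold change of 0.23 ± 0.08 (SE) and an adjusted p of 0.0493 by edgeR. That call ended without aged SAHA 1, 2 or 6, aged vehicle 3 or 5, or young vehicle 1, 2, 3, 5, 7 or 8. Without aged SAHA 6, the highest for miR-320-3p, the log2 fold change was 0.17 and the adjusted p 0.136. The capped members thus had opposite signs in this comparison. For miR-664-3p and miR-664-5p the log2 fold changes were 0.03 ± 0.07 and 0.14 ± 0.08 (SE), with adjusted p of 0.776 and 0.236 by edgeR, and the 5p share of miR-664 differed by 1.73 points (exact permutation p = 0.236, adjusted 0.426).

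Other miRNAs that avoid Drosha or Dicer served as neighbours by route. Mirtrons are hairpins that splicing releases as short introns (miR-702, miR-877, miR-1224, miR-1981, miR-1982 and miR-3102), and miR-451 of erythrocytes is matured by Argonaute in place of Dicer. Of 15 such rows 13 were tested, and miR-1982.1-3p and miR-1982.2-3p held identical counts. Both of these rows were negative in every comparison and both are counted below, so the numbers of negative rows repeat the same reads. None was called for SAHA by edgeR, DESeq2 or limma-voom (0, 0 and 2 with an unadjusted p under 0.05, where edgeR gave 19.4% of tested miRNAs one), and none for age (2, 1 and 2). Their median log2 fold change was -0.11 for SAHA, with 9 of 13 negative, against -0.01 and 261 of 509 over all tested miRNAs. For age it was -0.12, with 10 of 13 negative, against -0.003 and 259 of 509. For aged SAHA against young vehicle the 3′ mirtron product miR-3102-3p.2-3p fell, with 12.1 ± 2.46 CPM in aged SAHA and 16.9 ± 3.27 CPM in young vehicle (SD, n = 6 and 8), a log2 fold change of -0.47 ± 0.14 (SE, adjusted p 0.029 by edgeR), the only call of the 13, where 13.9% of all tested miRNAs were called. The median of the 13 was -0.21 with 11 negative, against -0.03 and 280 of 509 negative over all tested miRNAs. The most abundant of these rows, miR-451, averaged 95.6 ± 19.1 CPM in aged SAHA and 79.1 ± 8.85 CPM in aged vehicle (SD, n = 6 and 5), with a log2 fold change of 0.27 ± 0.15 (SE, adjusted p 0.315 by edgeR). The splicing products miR-1981-3p, miR-1224-5p and miR-702 had treatment values of -0.11 ± 0.09, 0.22 ± 0.12 and -0.15 ± 0.09 (SE, log2 fold change), none of them called.

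The miRNA most like miR-1839-5p over the 19 libraries was let-7d-5p, whose start is shown above. Pearson's r of log2 CPM was 0.954 and Spearman's rho 0.772, and r was 0.911 without the 2 libraries farthest from the median of let-7d-5p and 0.914 after the group means were taken out. These are descriptions without a test, since let-7d-5p was picked as the highest of all other tested miRNAs, and all values share the same libraries and scaling. let-7d-5p averaged 2370 ± 277 CPM in aged SAHA and 1881 ± 90.0 CPM in aged vehicle (SD, n = 6 and 5; log2 fold change 0.33 ± 0.07 SE, adjusted p 0.00937 by edgeR). The next most like was miR-3068-3p (r = 0.83).

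Likeness to miR-1839-5p varied among the miRNAs with AGGUAG at bases 3 to 8. Of these, 9 were tested, and let-7d-5p was the only one of the 9 called for SAHA by edgeR. r with miR-1839-5p was 0.741 for let-7a-5p, 0.738 for miR-98-5p and 0.69 for let-7g-5p, 0.369 to 0.416 for let-7b-5p, let-7c-5p and let-7i-5p, and -0.197 and -0.338 for let-7e-5p and let-7f-5p. The log2 fold changes for SAHA were 0.14 ± 0.07 for let-7a-5p and 0.16 ± 0.06 for let-7g-5p, against -0.11 ± 0.07 for let-7f-5p (SE), none of these 3 called.

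**Figure D5:**
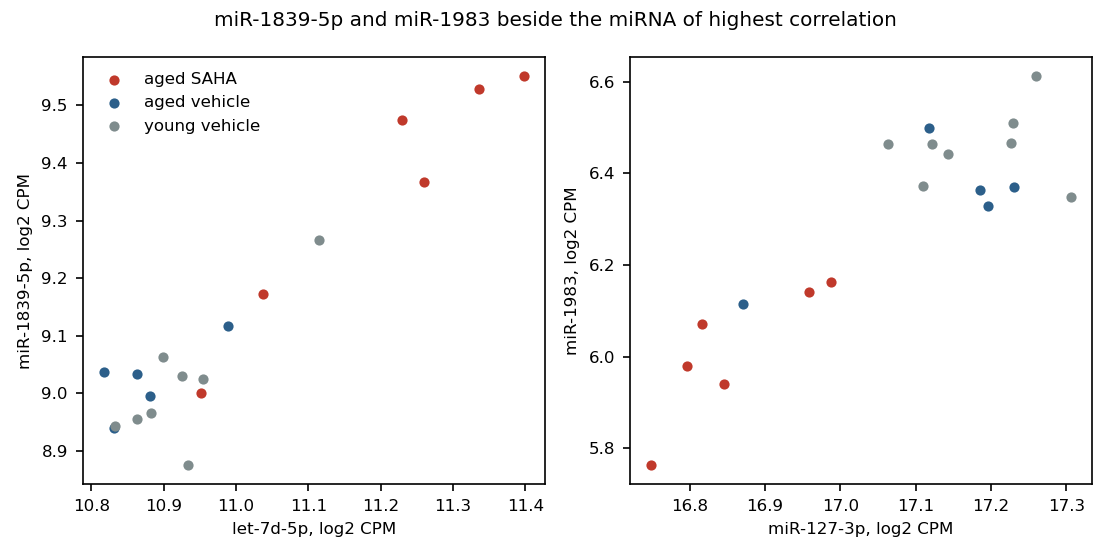
Each point is a library, coloured by group, with log2 CPM of let-7d-5p and miR-127-3p on the horizontal axes and of miR-1839-5p and miR-1983 on the vertical axes. The libraries run along a single line for miR-1839-5p (r = 0.954), aged SAHA 1 at its low end with most vehicle libraries, while for miR-1983 the aged SAHA libraries sit apart at the lower left with aged vehicle 2.

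miR-1983 was most like miR-127-3p (r = 0.886) and miR-673-5p (r = 0.858), both of the imprinted Dlk1-Dio3 cluster on another chromosome. Much of this lay between groups: with the group means taken out r was 0.618 for miR-127-3p and 0.413 for miR-673-5p. miR-127-3p averaged 119061 ± 7901 CPM in aged SAHA and 142974 ± 13656 CPM in aged vehicle (SD, n = 6 and 5). miR-412-3p, which shares the seed of miR-1983, was far scarcer, at 5.87 ± 1.64 CPM in aged SAHA and 4.995 ± 0.772 CPM in aged vehicle, with a log2 fold change of 0.23 ± 0.23 (SE, adjusted p 0.644 by edgeR).

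For the other members, miR-320-3p was most like miR-30d-5p (r = 0.86) and let-7a-5p (r = 0.84), and miR-484 most like miR-186-5p (r = 0.836) and let-7b-3p (r = 0.779). miR-664-5p was most like miR-103-3p (r = 0.765) and miR-215-5p (r = 0.702), miR-664-3p most like miR-25-5p (r = 0.655) and miR-350-3p (r = 0.623), and miR-1839-3p most like miR-7a-1-3p (r = 0.661) and miR-672-5p (r = 0.645). These pairs, like those of miR-1983, were picked for the highest r among all other tested miRNAs. For the pairs of this paragraph, r was also taken without the 2 libraries farthest from the median of the other miRNA. It then ran from 0.44 (miR-664-3p with miR-350-3p) to 0.776 (miR-664-5p with miR-103-3p). No member appeared as the closest of another. Between both arms of miR-664 r was 0.11, and between both arms of miR-1839 it was 0.0888, or 0.523 after the group means were taken out. miR-320-3p and miR-484, the capped pair, had r of -0.0188, or 0.526 after the group means were taken out.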

How the data were processed

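Counts are those the authors deposited, as whole numbers for each listed miRNA of a library, without normalisation. Per the submitters' processing notes, the tools were HTSeq, STAR, cutadapt and CASAVA 1.8.2 and the build mm10, without stated order or settings; the miRNA annotation release, strand and multi-mapping settings are not given in the sources used here. The HTSeq summary lines were all 0 and were left out, so the unassigned share is unknown. Reads carry no molecular identifiers, so intervals cover counting error only.

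The members and lists were chosen with earlier results of these data known. All 19 libraries entered 1 edgeR 4.0.16 fit (R 4.3.3; filterByExpr with minimum count 10 and minimum total 15, TMM, robust quasi-likelihood F test, 1 term per group), with Benjamini-Hochberg adjustment over 509 tested miRNAs per comparison and a threshold of 0.05; 639 were untested. The SE is the size of the log2 fold change divided by the square root of F. Named were all member rows, the 2 tested miRNAs most correlated with each (log2 CPM, prior count 2), and, of mirtrons and miR-451, those called or else the 4 most abundant. Arm shares were tested by exact two-sided permutation where both arms had at least 20 counts together. For miR-320 the 5p share was at most 0.256%, with adjusted p of 0.425 to 0.55 by that exact permutation test. Hairpins were folded with ViennaRNA 2.7.2. The edgeR fit was tested on simulated counts. Of simulated 1.25-fold changes it recovered 43.4% for aged SAHA against aged vehicle, 36.6% for age and 54.2% for aged SAHA against young vehicle. The permutation code was checked on small made-up sets of values. No library was a copy of another (lowest chi-square per degree of freedom 27.4 over 53 pairs within groups). Alternatives were DESeq2 1.42.0, limma-voom 3.58.1, other scalings and filters, each library left out, and a replicate block.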

Additional observations from a re-analysis of the deposited data

Results flagged for a closer look

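1 of 27 group-wise checks for a library far from its group was met, and chance gives about 1 in 20. miR-1839-5p was at 615 CPM in young vehicle 6, against 469.5 to 535 CPM in the other 7 young vehicle libraries, and the gap to its nearest neighbour was 0.552 of the range of the group, above the critical value of 0.526. Without that library and aged SAHA 1 together, the log2 fold change of miR-1839-5p was 0.40 for aged SAHA against aged vehicle.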

How the results depend on the processing

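miR-1839-5p and miR-1983 in aged SAHA against young vehicle, and the miR-1839 5p share of aged SAHA against both vehicle groups, kept direction and call under every alternative without a replicate block. Leaving out 1 library gave log2 fold changes of 0.30 to 0.41 for miR-1839-5p and -0.48 to -0.40 for miR-1983, and share differences of 1.63 to 2.03 points against aged vehicle and 1.17 to 1.41 points against young vehicle. The causes of the changes below were not tested. For aged SAHA against aged vehicle, calls numbered 22, but 39 with DESeq2, 46 with limma-voom, 37 without aged SAHA 1 and young vehicle 6, and 11 (without aged SAHA 6) to 33 with 1 library left out, 13 without aged vehicle 1 and 14 without aged vehicle 3. miR-1839-5p ranged from 0.30 to 0.40 with 1 library left out. miR-1983 was at -0.33 with no filter (adjusted p 0.0578, edgeR), -0.31 with only the groups compared (0.0833, edgeR) and -0.37 to -0.28 with 1 left out. miR-320-3p was at 0.31 with DESeq2 size factors (adjusted p 0.0446, edgeR), 0.30 with library size only (0.0308, edgeR), 0.30 with a filter of 10 CPM in 5 libraries (0.0401, edgeR), 0.31 with DESeq2, 0.28 with limma-voom and 0.23 to 0.34 with 1 left out. For age, calls numbered 11, but 20 with DESeq2, 23 with limma-voom, 19 with only the groups compared, 18 without that pair of libraries and 8 to 14 with 1 left out. For aged SAHA against young vehicle, calls numbered 71 and 57 to 81 with 1 left out. There, miR-320-3p was at 0.24 with no filter (adjusted p 0.0583, edgeR), 0.21 with limma-voom (0.0636), 0.26 with only the groups compared (0.0542, edgeR), 0.22 without that pair (0.0795, edgeR) and 0.17 to 0.29 with 1 left out, and miR-484 at -0.25 with only the groups compared (0.0616, edgeR) and -0.33 to -0.23 with 1 left out. Values near 0 changed sign: miR-1839-3p in aged SAHA against young vehicle (0.0040 with library size only, 0.011 with limma-voom, 0.014 without that pair, -0.095 to 0.0135 with 1 left out), miR-664-5p under SAHA (-0.014 to 0.084), miR-1839-5p with age (-0.0145 to 0.045) and the miR-664 share with age (-0.50 to 1.26 points). Scaling moved the split of calls: against aged vehicle 6 were higher and 16 lower, but 10 and 16 with DESeq2 size factors and 11 and 16 with library size only; against young vehicle 27 were higher and 44 lower, but 51 and 33 with library size only and 38 and 36 without the 3 most abundant miRNAs. Replicate numbers did not pair the libraries: over 16 same-numbered pairs the correlation of deviations from group means was -0.32 to 0.31 (median 0.02). With a replicate block, calls numbered 15, 8 and 58 in the 3 comparisons. Under the replicate block miR-1839-5p was at 0.28 (adjusted p 0.058, edgeR) and miR-1983 at -0.33 (0.0771, edgeR) against aged vehicle, and miR-320-3p at 0.20 (0.138, edgeR) against young vehicle. For the miR-1839 share the block was a test of sign flips over the differences of same-numbered libraries. Against aged vehicle it used 5 pairs, without aged SAHA 6, and the mean difference was 1.70 points (exact sign-flip p = 0.0625, adjusted 0.281). Against young vehicle it used 6 pairs, without young vehicle 7 and 8, and the mean difference was 1.33 points (exact sign-flip p = 0.0312, adjusted 0.281). Each p is the smallest these pairs can give. miR-320-5p, with 7 counts in all, did not pass the filter for the edgeR test, and the shares of miR-320, which rest on them, say little.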

Other observations

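Between members, some correlations over the 19 libraries lay mainly between groups. Pearson's r of log2 CPM was -0.507 for miR-1839-5p with miR-1983, but 0.371 after the group means were taken out, and 0.568 for miR-484 with miR-1983, but 0.0607 after the group means were taken out. miR-664-3p and miR-1839-3p, the 3p arms of both snoRNA-type precursors, had r of 0.567, or 0.55 after the group means were taken out. These values share libraries and scaling and carry no test.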
